A study of Mus musculus with 36 samples.

Results

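The 7 genes described here are *Parp8*, *Parp9*, *Parp10*, *Parp11*, *Parp12*, *Parp14* and *Dtx3l*, chosen by name as the rows that carry these symbols in a table of 54532 mouse genes. Their RNA was measured by RNA-seq in bone marrow-derived macrophages (BMDMs) of adult female C57BL/6 mice, in 36 libraries of 8 groups. WT mice carried Bmal1 flox/flox alleles without Cre (3 replicates), and their KO littermates carried LysM-Cre;Bmal1 flox/flox (6 replicates), so that both genotypes share the floxed alleles. LysM-Cre acts in myeloid cells, and BMAL1 is the transcription factor that, with CLOCK, drives the circadian clock. For 6 h the cells were kept in DMSO (vehicle), in CCM at 100 µM, in LPS at 100 nM plus DMSO, or in both compounds (LPS+CCM). CCM (Core Circadian Modulator) is a small molecule that binds BMAL1, and LPS is the bacterial cell wall component that activates Toll-like receptor 4. The comparisons ask how CCM acts on macrophages at rest and under stimulation, and whether its action needs BMAL1.

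PARP enzymes transfer ADP-ribose from NAD+ to proteins or nucleic acids, and several members of the family add a lone ADP-ribose unit rather than a chain. *Parp9*, *Parp10*, *Parp11*, *Parp12* and *Parp14* are known from other work as genes that type I and type II interferons induce in macrophages. *Dtx3l* encodes a Deltex E3 ubiquitin ligase that forms a complex with the PARP9 protein, and *Parp9* and *Dtx3l* lie head to head and share a promoter region. No sample in the series received interferon, so that induction itself was not measured. In macrophages LPS also sets off interferon-beta, encoded by *Ifnb1*, which then acts back on the cells.

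Positions are those of the deposited table, which lie on mm10 (GRCm38). *Parp14* (ENSMUSG00000034422, chr16:35832874-35871544, minus strand), *Dtx3l* (ENSMUSG00000049502, chr16:35926511-35939151, minus strand) and *Parp9* (ENSMUSG00000022906, chr16:35938470-35972605, plus strand) form a cluster. *Parp12* (ENSMUSG00000038507, chr6:39086410-39118349, minus strand) and *Parp11* (ENSMUSG00000037997, chr6:127446840-127494261, plus strand) lie on chromosome 6. *Parp10* (ENSMUSG00000063268, chr15:76231174-76243441, minus strand) and *Parp8* (ENSMUSG00000021725, chr13:116854820-117025537, minus strand) lie apart from the others. The intervals of *Parp9* and *Dtx3l* overlap by 682 bases on opposite strands, and that of *Parp10* overlaps *Plec* by 1401 bases on the same strand. Whether counting used strand is not given in the sources used here, so reads from these overlaps are uncertain for the 3 genes.

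The sequences upstream of 4 of the 7 genes could be read from RefSeq's promoter table for GRCm38.p6 (*Parp8*, *Parp11*, *Parp12* and *Dtx3l*, with 2 starts for *Parp11*). They are shown because the genes moved together with LPS while their upstream sequences are unlike in composition. Capitals mark the letters of 3 motifs that were searched on both strands. These were the core of the interferon-stimulated response element (GAAA, any 2 bases, GAAA), the gamma-activated site (TTCNNNGAA) and the E-box (CACGTG), bound by BMAL1 with CLOCK. Each sequence runs 5′ to 3′ on the gene's strand from 250 bases before the start. It stops at the first annotated protein-coding exon, and bases beyond that point are not shown. For *Dtx3l*, whose window holds exons of *Dtx3l* and *Parp9*, only 71 bases are shown, which do not reach the start.
Parp11 start 1, chr6:127446590-127446839, plus strand: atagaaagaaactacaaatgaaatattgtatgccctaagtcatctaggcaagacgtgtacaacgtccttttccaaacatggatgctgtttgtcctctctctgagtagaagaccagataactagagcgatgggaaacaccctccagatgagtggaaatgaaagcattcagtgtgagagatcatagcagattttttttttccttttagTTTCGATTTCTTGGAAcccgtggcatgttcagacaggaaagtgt
Parp11 start 2, chr6:127453377-127453619, plus strand: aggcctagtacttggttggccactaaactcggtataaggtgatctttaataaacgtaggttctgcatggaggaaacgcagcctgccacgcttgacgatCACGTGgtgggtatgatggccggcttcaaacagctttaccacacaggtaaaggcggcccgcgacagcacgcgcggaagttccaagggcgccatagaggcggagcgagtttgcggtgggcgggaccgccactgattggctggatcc
Dtx3l, chr16:35939207-35939277, minus strand: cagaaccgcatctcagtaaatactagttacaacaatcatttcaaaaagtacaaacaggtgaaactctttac
Parp12, chr6:39118350-39118599, minus strand: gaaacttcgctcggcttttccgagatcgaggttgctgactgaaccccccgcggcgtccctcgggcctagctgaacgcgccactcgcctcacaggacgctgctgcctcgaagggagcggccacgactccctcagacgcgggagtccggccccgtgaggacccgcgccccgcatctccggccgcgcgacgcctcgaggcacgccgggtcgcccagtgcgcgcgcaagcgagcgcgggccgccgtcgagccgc
Parp8, chr13:117025538-117025781, minus strand: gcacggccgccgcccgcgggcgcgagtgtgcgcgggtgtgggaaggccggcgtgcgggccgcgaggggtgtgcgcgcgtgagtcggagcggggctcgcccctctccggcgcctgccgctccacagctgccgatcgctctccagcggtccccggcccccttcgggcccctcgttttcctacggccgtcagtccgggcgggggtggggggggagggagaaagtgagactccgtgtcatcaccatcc

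At the first *Parp11* start, a match to the interferon-stimulated response element core on the reverse strand (-44 to -35 from the start) overlapped a gamma-activated site (-37 to -29), and the capitals run through both. At the second *Parp11* start the capitals are an E-box at -152 to -147. The *Dtx3l*, *Parp12* and *Parp8* windows held none of these letters. The whole windows of 300 bases were searched. Among 32851 mouse promoter windows of that length, 3.44% held the response element core, 8.3% the gamma-activated site and 7.15% the E-box. The sequence upstream of *Parp12* was 73.6% GC and that of *Parp8* 75.8%, against 40.4% at the first *Parp11* start and a median of 52.4% over all windows. A match is a description of the letters and not of binding.

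The libraries held 13469262 to 28288923 read pairs assigned to genes, and each of the 7 genes had at least 99 counts in every library. Levels are in CPM, which relate the reads on a gene to the library's total after TMM scaling between libraries. The 6 macrophage markers summed to 3037 to 6111 CPM in every library. The neutrophil markers summed to 425 to 1202 CPM, and the plasmacytoid dendritic cell markers to 35.6 to 108 CPM. The single genes *Ly6g*, *Cd3e* and *Siglech*, from the neutrophil, T cell and plasmacytoid dendritic cell lists, each averaged at most 0.304 CPM in every group. The fibroblast markers summed to 296 to 1660 CPM, mostly from collagen genes. The T cell and erythroid markers summed to at most 10.3 and 11.6 CPM. Counts over the whole Bmal1 gene (*Arntl*) overlapped between genotypes, at 7.28 to 12.9 CPM in WT and 2.13 to 10.7 CPM in KO libraries. The lowest KO value of each treatment came from replicate 6, and without it KO libraries were at 4.53 to 10.7 CPM. These counts do not measure the deleted exon.

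The 4 libraries of KO replicate 6 stood apart from the other KO libraries, and the 7 genes show it. *Dtx3l*, *Parp14*, *Parp8* and *Parp9* were lower in replicate 6 than in each of replicates 1 to 5 under all 4 treatments. *Parp10* was higher under all 4 treatments. In KO LPS libraries *Dtx3l* was at 119 CPM in replicate 6 and at 287 to 347 CPM in the others, while *Parp10* was at 365 CPM against 260.4 to 303 CPM. Over 15720 genes, these 4 libraries differed from the rest of their groups by a median of 0.67 to 0.94 on the log2 scale, against 0.11 to 0.38 for the other 32 libraries. Across genes, the difference of replicate 6 ran with the GC content of the transcript (Spearman's rho 0.34 to 0.40) and against its length (-0.46 to -0.40), as a description over genes that share 1 library. The other 32 libraries spanned -0.35 to 0.14 for GC content and -0.39 to 0.45 for length. Of the 7 genes, *Parp10* has the transcript richest in GC (58.2%) and *Dtx3l* the poorest (45.9%), and *Parp14* the longest (7417 bases). *Parp8*, also lower in replicate 6, has the shortest (3098 bases), at 46.3% GC. *Parp11*, at a like 46.5% GC, lay above the other KO libraries in replicate 6 under 2 treatments and within their range under 2. In replicate 6 the neutrophil marker sum was 1148 to 1202 CPM, above the other KO libraries of each treatment, and the macrophage marker sum was the lowest of its group. The T cell and erythroid sums were also the highest of their group in replicate 6 under all 4 treatments, at 10.3 CPM against 3.03 to 4.26 CPM and at 5.03 CPM against 1.48 to 4.08 CPM with LPS. The plasmacytoid dendritic cell sum was the lowest, at 73.1 CPM against 92.3 to 108 CPM with LPS. The part of these values in the results was not tested. KO comparisons of the 7 genes are therefore given with and without replicate 6.

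**Figure D1:**
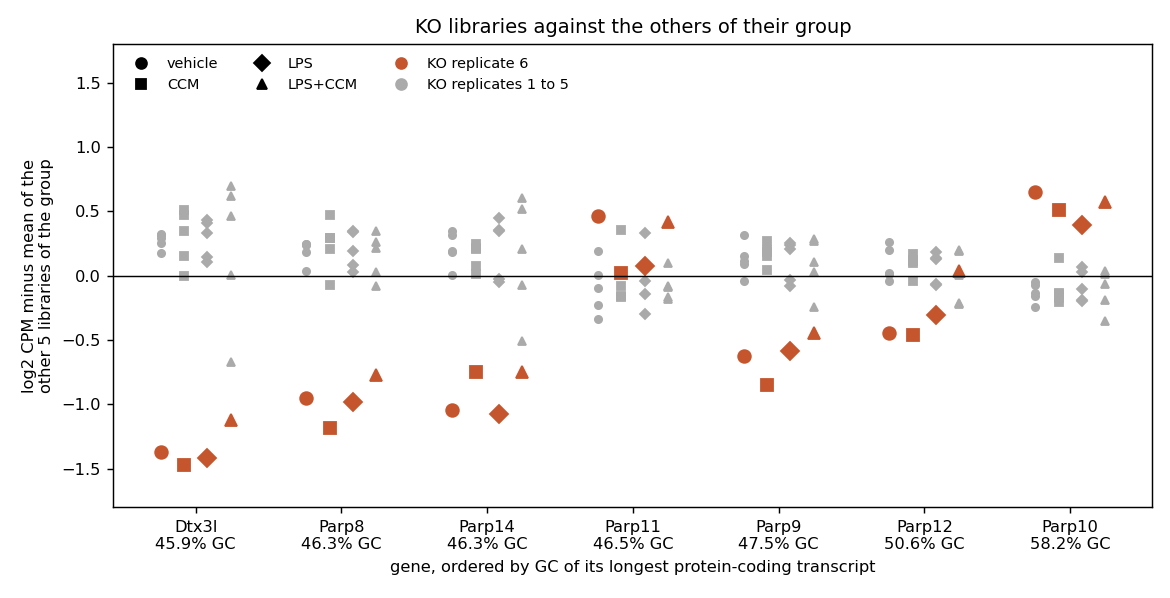
Difference in log2 CPM between each KO library and the mean of the other 5 libraries of its group, for the 7 genes ordered by the GC content of the longest protein-coding transcript. Marker shape gives the treatment, and replicate 6 (orange) lies lowest for *Dtx3l*, *Parp8*, *Parp14* and *Parp9* and highest for *Parp10* in all 4 treatments.

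Within groups, deviations from the group mean showed the same library. Over all 36 libraries, *Dtx3l* and *Parp10* deviated in opposite directions (Pearson's r = -0.70). Without the 4 libraries of replicate 6 the correlation was 0.60 over 32 libraries. For *Dtx3l* and *Parp14* it was 0.94 with and 0.80 without them. These are descriptions over libraries that share their scaling.

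In resting WT macrophages, the 7 genes differed in level. Per kilobase of gene length, *Parp12* was highest at 11.4 ± 0.77 CPM per kilobase (SD, n = 3). *Parp14* (7.61 ± 0.86) and *Parp10* (6.95 ± 0.58) followed and overlapped, as did *Dtx3l* (5.67 ± 0.33) and *Parp9* (5.38 ± 0.63). *Parp8* (1.92 ± 0.16) and *Parp11* (1.34 ± 0.08) were lowest and did not overlap. The order changed with LPS, where *Parp14* rose to the top at 177 ± 24 CPM per kilobase. *Parp12* was at 153 ± 4.2 and overlapped it, then came *Parp9* (67.0 ± 1.3) and *Parp10* (65.1 ± 1.1), which overlapped each other. *Dtx3l* (55.1 ± 0.88), *Parp11* (13.8 ± 0.97) and *Parp8* (9.24 ± 0.53) followed without overlap. In KO macrophages the same genes headed both orders, *Parp12* at rest and *Parp14* with LPS, and more neighbours overlapped.

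**Figure D2:**
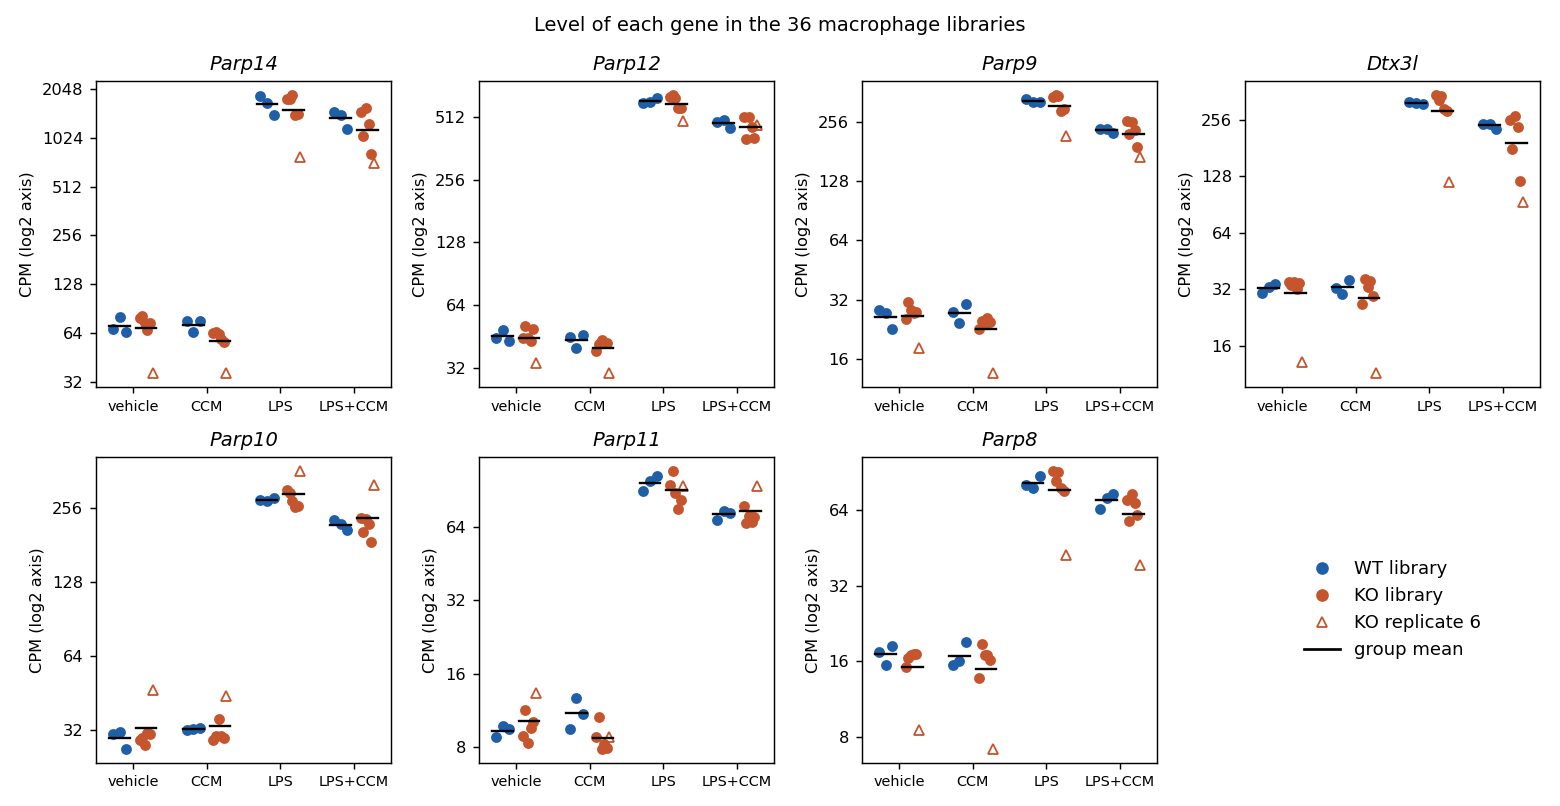
CPM (TMM-scaled, log2 axis) of the 7 genes in the 36 libraries by treatment, WT in blue and KO in orange, with KO replicate 6 as an open triangle and a line at each group mean. With LPS, every library lies above every library without LPS of its genotype, for example *Parp14* at 1420.1 to 1858 CPM in WT against 64.9 to 79.9 CPM with vehicle.

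LPS raised all 7 genes in WT macrophages, between 4.80-fold and 23.4-fold. In this comparison 63% of the genes tested were called at an adjusted p of at most 0.05, and 30.6% were called higher. *Parp14*, a mono-ADP-ribosyltransferase with macrodomains, was at 67.5, 79.9 and 64.9 CPM with vehicle and at 1858, 1675 and 1420.1 CPM with LPS in replicates 1 to 3. This log2 fold change of 4.55 (SE 0.12, edgeR adjusted p = 5.68e-10) was the largest of the 7 and lay at the 98.2nd percentile of all genes tested. *Parp12*, a mono-ADP-ribosyltransferase with CCCH zinc fingers, was at 44.6, 48.9 and 43.0 CPM with vehicle and at 596, 607 and 629 CPM with LPS. Its log2 fold change was 3.75 (SE 0.07). For the partner genes *Parp9* and *Dtx3l* the log2 fold changes were 3.65 (SE 0.08) and 3.28 (SE 0.07). *Parp9* went from 28.4, 27.4 and 22.7 CPM to 334, 323 and 322 CPM. *Dtx3l* went from 30.4, 32.8 and 34.1 CPM to 320.1, 316 and 310.0 CPM.

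*Parp11*, a mono-ADP-ribosyltransferase with a WWE domain, was the lowest at rest, at 8.78, 9.80 and 9.56 CPM. With LPS it reached 89.9, 98.7 and 103 CPM, a log2 fold change of 3.38 (SE 0.08). *Parp10*, also a mono-ADP-ribosyltransferase, went from 30.9, 31.4 and 26.8 CPM to 277, 274 and 284 CPM (3.24, SE 0.07). *Parp8* changed least, from 17.4, 15.5 and 18.4 CPM to 80.6, 78.4 and 87.3 CPM (2.26, SE 0.08, edgeR adjusted p = 5.35e-09). For each of the 7 genes the vehicle and LPS libraries did not overlap. The share of all genes without overlap was not counted, in this or the other comparisons.

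LPS raised the 7 genes in KO macrophages as well, with log2 fold changes of 2.32 (*Parp8*) to 4.45 (*Parp14*) and SEs of 0.12 to 0.29. Of all genes tested there, 47.1% were called and 22.4% were called higher. Without replicate 6 the range was 2.32 to 4.45, so the values hardly moved, while the largest SE fell to 0.11. Within replicate 6 itself the LPS response was of like size, with *Parp14* 4.44 and *Dtx3l* 3.18 higher on the log2 scale in its LPS library than in its vehicle library. *Parp14* had a lowest, median and highest value of 36.02, 73.5 and 80.8 CPM with vehicle and of 779.7, 1601 and 1882 CPM with LPS. The lowest value of both groups came from replicate 6, and the groups did not overlap for any of the 7 genes.

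The genotypes did not differ beyond their spread for any of the 7 genes. KO against WT log2 fold changes ran from -0.15 to 0.15 with vehicle and from -0.14 to 0.08 with LPS, and 0 of 7 were called in either comparison. The LPS response differed between genotypes by -0.23 to 0.07, again with 0 of 7 called. In these 3 comparisons edgeR called 0% of all genes, no member had an unadjusted p under 0.05, and DESeq2 called 0 of 7. Over all genes, 105 to 118 had an unadjusted p under 0.05 in edgeR, and DESeq2 called 0 to 1. Without replicate 6 the values ran from -0.04 to 0.10 with vehicle, from -0.11 to 0.03 with LPS and from -0.17 to 0.06 for the LPS response, with 0 of 7 called and none at an unadjusted p under 0.05. Several of these small values changed sign with the setting. The 95% intervals of the difference, from the SE, are wide for some genes. The LPS response of *Parp12* in KO less that in WT was -0.01, with an interval of -0.33 to 0.31, and that of *Dtx3l* was -0.06, with -0.83 to 0.72.

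Without LPS, CCM left the 7 genes near their vehicle level in WT macrophages. Log2 fold changes ran from -0.07 (*Parp12*) to 0.22 (*Parp11*), and 0 of 7 were called, where 0.057% of all genes were called. No member had an unadjusted p under 0.05, while 1404 of 14024 genes tested did. DESeq2 called 0 of 7, where it called 247 of 25725 genes. *Parp11* was at 9.50, 12.8 and 10.9 CPM with CCM, which overlaps vehicle. *Parp10* was at 32.0, 32.5 and 32.6 CPM with CCM, above every vehicle library, with an edgeR adjusted p of 0.65. The interval for *Parp9* was -0.16 to 0.27, and that for *Dtx3l* was -0.16 to 0.17.

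In KO macrophages without LPS, 6 of the 7 estimates for CCM were below 0, from -0.25 (*Parp14*) to 0.03 (*Parp10*). None was called by edgeR, in a comparison where 0% of all genes were called. No member had an unadjusted p under 0.05, while 333 of 13799 genes tested did. DESeq2 called 0 of 7, where it called 24 of 27558 genes. *Parp9*, *Parp11* and *Parp12* were lower with CCM in 6 of 6 same-numbered replicates, *Parp14* and *Parp8* in 5 of 6, and *Dtx3l* and *Parp10* in 4 of 6. *Parp14* had a lowest, median and highest value of 36.3, 60.9 and 64.7 CPM with CCM, against 36.02, 73.5 and 80.8 CPM with vehicle. In replicates 1 to 5 it ranged from 56.5 to 64.7 CPM with CCM and from 66.2 to 80.8 CPM with vehicle, with no overlap. *Parp14* was called when replicate 6 was left out (log2 fold change -0.29, edgeR adjusted p = 0.0379, 1.01% of all genes called). A block on replicate number called it too (-0.24, edgeR adjusted p = 0.0404, 3.11% of all genes called). With both changes it was at -0.29 (edgeR adjusted p = 0.00265), and *Parp9* was called too (-0.20, edgeR adjusted p = 0.0463), where 5.24% of all genes were called.

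With LPS, CCM lowered 5 of the 7 genes in WT macrophages, to between 71.3% and 79.1% of their level with LPS alone. Of all genes tested, 11.9% were called and 7.78% were called lower. *Parp9* fell most, to 235, 237 and 226 CPM from 334, 323 and 322 CPM, a log2 fold change of -0.49 (SE 0.04, edgeR adjusted p = 8.30e-05). Its partner *Dtx3l* fell to 245, 243 and 229 CPM from 320.1, 316 and 310.0 CPM (-0.40, SE 0.04, edgeR adjusted p = 0.000276). *Parp11* fell to 68.7, 74.6 and 73.4 CPM from 89.9, 98.7 and 103 CPM (-0.43, SE 0.06, edgeR adjusted p = 0.00159). In each of these genes every LPS+CCM library lay below every LPS library. The share of all genes for which this holds was not counted.

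*Parp12* fell to 484, 496 and 455 CPM from 596, 607 and 629 CPM (-0.35, SE 0.05, edgeR adjusted p = 0.000897). *Parp10* fell to 229.9, 221 and 209.7 CPM from 277, 274 and 284 CPM (-0.34, SE 0.05, edgeR adjusted p = 0.00116). Neither gene's groups overlapped, which was likewise not counted over all genes. *Parp8* was at 64.3, 71.6 and 74.2 CPM against 80.6, 78.4 and 87.3 CPM, without overlap, and did not pass the test (-0.23, SE 0.07, edgeR adjusted p = 0.0543).

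*Parp14*, which LPS raised most, was at 1483, 1411 and 1159 CPM with LPS+CCM against 1858, 1675 and 1420.1 CPM with LPS alone. The groups overlapped, since replicate 3 was the lowest in both, and the log2 fold change of -0.29 (SE 0.10) had an edgeR adjusted p of 0.109. DESeq2 called 7 of 7, with an adjusted p of 0.034 for *Parp8* and 0.0247 for *Parp14*, where it called 1557 of 25292 genes. Within each replicate number the change was close, and *Parp14* with CCM was 81.9 ± 2.22% of its LPS level (SD, n = 3). With a block on replicate number, *Parp14* (edgeR adjusted p = 6.24e-07) and *Parp8* (0.00200) were called and the count became 7 of 7, where 23.7% of all genes were called and 13.3% lower. Without WT LPS replicate 3, *Parp14* was called without a block as well (-0.39, edgeR adjusted p = 0.0323). In a fit of all 36 libraries together, where KO replicate 6 enters the shared spread, none of the 7 was called, with nearly the same estimates (-0.49 to -0.23) and 3 members at an unadjusted p under 0.05. That fit called 0.108% of all genes, and 792 of 15720 had an unadjusted p under 0.05. With library totals in place of TMM the 5 genes were called at -0.41 to -0.26 (16.7% of all genes called), while the split over all genes went from 564 higher and 1057 lower to 1539 higher and 733 lower.

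**Figure D3:**
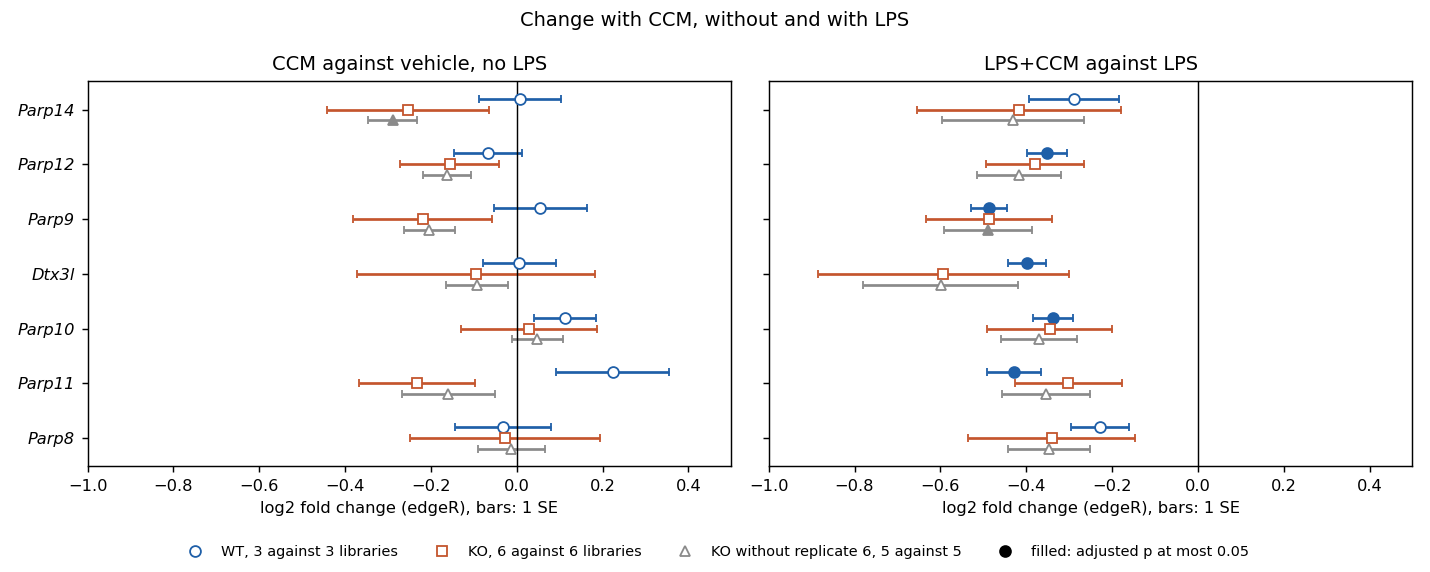
Log2 fold change (edgeR) with CCM for the 7 genes, without LPS (left) and with LPS (right), in WT, in KO and in KO without replicate 6. Bars are 1 SE, and filled markers have an adjusted p of at most 0.05. With LPS the estimates of the 7 genes lie below 0 in each of the 3, from -0.60 to -0.23.

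Marker sums of cell types are given for the same WT libraries. The macrophage markers summed to 5340.1 to 5490.4 CPM with LPS and to 5479 to 5646 CPM with LPS+CCM. Of these 6, *Csf1r* rose and *Fcgr1* and *Mertk* fell with CCM. The neutrophil markers summed to 514 to 562 CPM and to 440.4 to 523 CPM, and 1 of 7 tested, *S100a9*, fell. The fibroblast markers summed to 514 to 729 CPM and to 602 to 700 CPM, and 0 of 5 were called by edgeR (1 with an unadjusted p under 0.05, and 0 by DESeq2). The 4 plasmacytoid dendritic cell markers summed to 96.2 to 107 CPM and to 70.8 to 86.0 CPM, without overlap, 1 of the 2 tested (*Tcf4*) fell, and *Siglech* was at 0.20 ± 0.24 and 0.05 ± 0.09 CPM (SD, n = 3). Their part in the result was not tested. Fewer cells that carry an RNA and less of it per cell cannot be told apart in bulk libraries.

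In LPS-treated KO macrophages, CCM gave estimates of the same sign for all 7 genes, from -0.59 (*Dtx3l*) to -0.30 (*Parp11*). None was called by edgeR, in a comparison where 0.112% of all genes were called. Of the 7, 4 had an unadjusted p under 0.05, as did 1070 of 13386 genes tested. DESeq2 called 0, where it called 180 of 26968 genes. The estimates for *Parp9* were -0.49 (SE 0.15, edgeR adjusted p = 0.292) in KO and -0.49 (SE 0.04) in WT. Those for *Parp12* were -0.38 (SE 0.11, edgeR adjusted p = 0.289) and -0.35 (SE 0.05).

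The KO groups spread widely. *Parp9* had a lowest, median and highest value of 217, 320.4 and 352 CPM with LPS and of 170.5, 229 and 259 CPM with LPS+CCM. The lowest value of each came from replicate 6, and in replicates 1 to 5 the groups did not overlap, at 291 to 352 CPM and 191 to 259 CPM. *Dtx3l* was at 119, 309.8 and 347 CPM with LPS and at 93.4, 206 and 267 CPM with LPS+CCM. Its 2 lowest LPS+CCM libraries were replicates 6 and 5, the latter at 121 CPM. Replicate 5 with LPS+CCM also had a macrophage marker sum of 4307 CPM, against 5291 to 6111 CPM in replicates 1 to 4, and a neutrophil sum of 892 CPM, against 437 to 718 CPM. The part of these values was not tested. *Parp10* was at 260.4, 286 and 365 CPM with LPS and at 188, 227 and 320.1 CPM with LPS+CCM, the highest of each from replicate 6.

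The direction was compared between same-numbered libraries. The numbers are not shown to pair the samples here, since deviations of same-numbered libraries correlated at -0.0965 to 0.808. *Parp8*, *Parp9*, *Parp10*, *Parp12*, *Parp14* and *Dtx3l* were lower with LPS+CCM than with LPS in 6 of 6 same-numbered KO replicates, and *Parp11* in 5 of 6. In replicate 6 *Parp11* was at 94.0 CPM in both libraries. Without replicate 6 the estimates ran from -0.60 to -0.35. All 7 genes then had an unadjusted p under 0.05, as did 2437 of 13429 genes tested. *Parp9* was called (-0.49, edgeR adjusted p = 0.0412), where 1.27% of all genes were called. Without replicates 5 and 6 *Parp9* was again called (-0.45, edgeR adjusted p = 0.0330) and the range was -0.48 to -0.34, where 1.27% of all genes were called. In the fit of all 36 libraries *Parp12* was called (edgeR adjusted p = 0.0412), where 1.81% of all genes were.

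The difference between genotypes in the change with CCM under LPS was tested as an interaction. It was -0.18 (*Dtx3l*) to 0.14 (*Parp11*), 0 of 7 were called, and 0% of all genes were called. No member had an unadjusted p under 0.05, while 72 of 14546 genes tested did. DESeq2 called 0 of 7, where it called 0 of 28270 genes. For *Parp9* the difference, KO less WT, was 0.02 with an interval of -0.39 to 0.43. Without replicate 6 it was 0.01 (SE 0.13), and the 7 values ran from -0.19 to 0.09 with 0 called and none at an unadjusted p under 0.05. For *Parp12* it was -0.01 with an interval of -0.32 to 0.30, and for *Dtx3l* -0.18 with -1.03 to 0.67. A p that misses the threshold does not show that the genotypes respond alike.

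Whether CCM changed the 7 genes more with LPS than without it was also tested as an interaction. It uses the same libraries as the comparisons above. In WT macrophages it was called for *Parp11* (-0.67, SE 0.13, edgeR adjusted p = 0.0172), *Parp9* (-0.56, SE 0.12, edgeR adjusted p = 0.0261), *Parp10* (-0.47, SE 0.08, edgeR adjusted p = 0.0124) and *Dtx3l* (-0.42, SE 0.09, edgeR adjusted p = 0.0287). Of all genes tested, 2.09% were called and 1.62% were called lower. *Parp14*, *Parp12* and *Parp8* were at -0.31, -0.30 and -0.21 and did not pass the test. DESeq2 called 5 of 7, with *Parp12* added (adjusted p = 0.0148), where it called 696 of 27859 genes. On leaving out a WT library, 2 to 4 of 7 were called, where 149 to 295 of all genes tested were. *Parp10* and *Parp11* were called each time, while *Dtx3l* alone or with *Parp9* often lost the call. Without WT CCM replicate 1, WT CCM replicate 3, WT LPS replicate 1, WT LPS replicate 2, WT LPS+CCM replicate 2 or WT LPS+CCM replicate 3, 2 were called. With library totals alone 2 were called, *Parp10* and *Parp11*, where 2.35% of all genes were. In the fit of all 36 libraries 0 were called, where 0% of all genes were. In that fit 1 member had an unadjusted p under 0.05, as did 323 of 15720 genes tested. In KO macrophages the 7 interaction values ran from -0.48 to -0.05, and 0 of 7 were called, where 0.00685% of all genes were called. No member had an unadjusted p under 0.05 there, while 536 of 14588 genes tested did. DESeq2 called 0, where it called 12 of 29593 genes. Without replicate 6 the values ran from -0.51 (*Dtx3l*) to -0.15 (*Parp14*). Of the 7, 5 then had an unadjusted p under 0.05, as did 1926 of 14609 genes tested. None was called, with a lowest edgeR adjusted p of 0.145 (*Parp10*).

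Other genes of ADP-ribose metabolism were described from lists that hold no member. Of 10 other PARP family genes, LPS raised 5 and lowered 3 in WT macrophages, where 30.6% of all genes were called higher and 32.4% lower. Their median log2 fold change was 0.15, against 3.38 for the 7 genes and -0.05 over all genes tested. *Zc3hav1*, the zinc finger antiviral protein, and *Tiparp*, a target of the aryl hydrocarbon receptor, rose by 1.86 (SE 0.07) and 1.84 (SE 0.09). *Parp1*, which makes poly(ADP-ribose) at DNA breaks, fell by 1.35 (SE 0.06). With CCM on top of LPS, *Tiparp* (-0.59, edgeR adjusted p = 0.00025), *Parp4* (-0.31, 0.0088) and *Zc3hav1* (-0.30, 0.0038) fell and *Parp1* rose (0.20, 0.038), while 6 did not pass the test. Of all genes tested there, 7.78% were called lower and 4.15% higher. The median of this list was -0.06, that of the 7 genes was -0.35 and that of all genes was 0.01. In KO macrophages LPS raised 3 of the 10 and lowered 3, where 22.4% of all genes were called higher and 24.7% lower. CCM under LPS changed none there by edgeR (3 had an unadjusted p under 0.05, and DESeq2 called 0), where 0.112% of all genes were called.

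**Figure D4:**
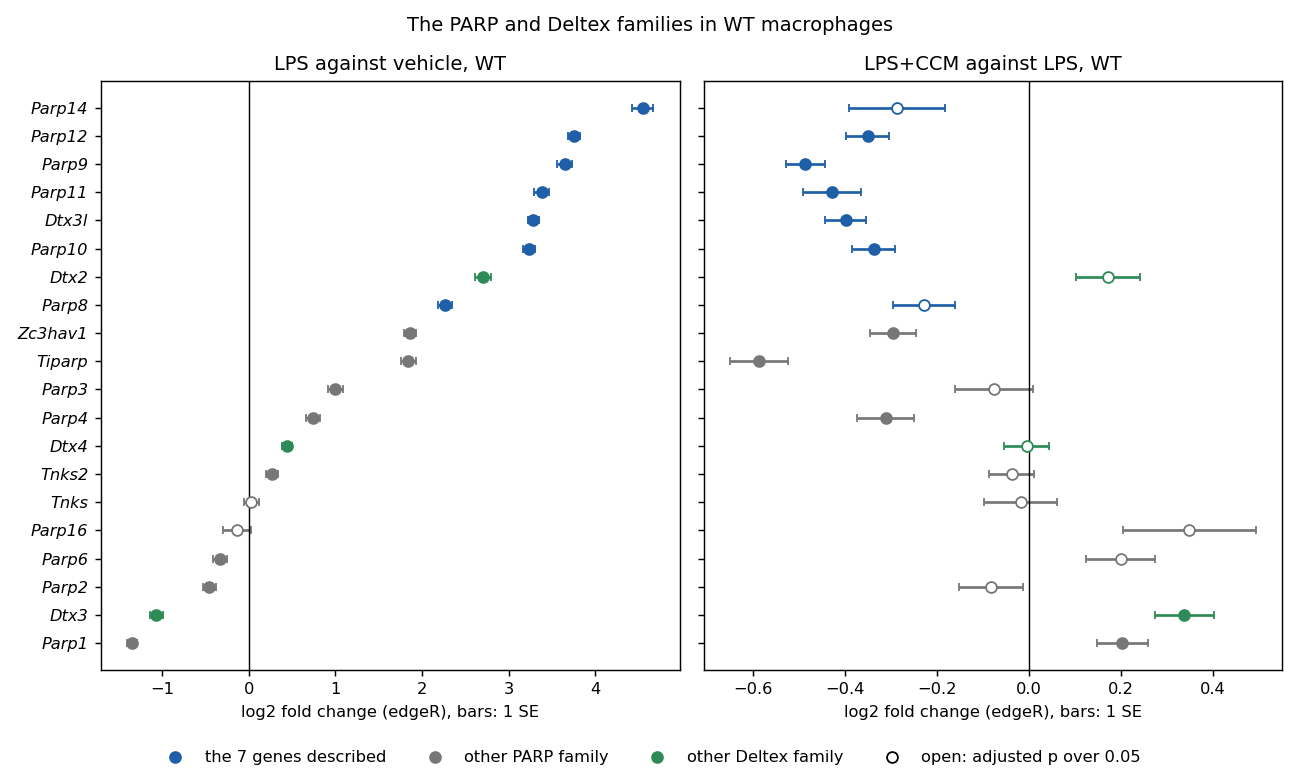
Log2 fold change (edgeR, bars 1 SE) of the 7 genes (blue), 10 other PARP family genes (grey) and 3 other Deltex family genes (green) in WT macrophages, for LPS against vehicle (left) and LPS+CCM against LPS (right). Open markers have an adjusted p over 0.05. The 7 blue genes lie at 2.26 to 4.55 with LPS and at -0.49 to -0.23 with CCM, and the LPS libraries are shared by both panels.

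Of 3 Deltex family genes tested, which encode ubiquitin ligases like DTX3L, LPS raised *Dtx2* (2.71, SE 0.09) and *Dtx4* (0.44, SE 0.06) and lowered *Dtx3* (-1.07, SE 0.08) in WT. CCM under LPS raised *Dtx3* (0.34, edgeR adjusted p = 0.0078), and the other two did not pass the test. Of 6 ADP-ribose hydrolase genes tested, whose enzymes remove ADP-ribose, LPS raised 1 and lowered 2, and CCM under LPS changed none by edgeR (2 had an unadjusted p under 0.05, and DESeq2 called 0). Of genes that make or use NAD+, LPS raised 5 and lowered 4 of 11 tested in WT. For these 3 lists, the shares over all genes with LPS in WT were 30.6% higher and 32.4% lower. With CCM under LPS in WT they were 4.15% higher and 7.78% lower. Of the 10 tested with CCM under LPS, *Bst1*, an NAD+ glycohydrolase, rose (0.54, edgeR adjusted p = 0.025) and 9 did not pass the test. *Bst1* had risen with LPS as well, by 2.87 (SE 0.19).

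Of the 17 genes of the interferon signalling list, LPS raised 14 and lowered 1 in WT macrophages, and 2 did not pass the test. Of all genes, 30.6% were called higher there. The median log2 fold change of the list was 1.73, which is the same with *Ifnb1* set at its bound. CCM under LPS lowered 8 and raised 1, and 8 did not pass, with a median of -0.23, where 7.78% of all genes were called lower. *Ifnb1* had 0 counts in the WT vehicle libraries and 30 to 42 counts with LPS, at least 11.2-fold higher against a floor of 3 counts per library. With LPS+CCM it had 5 to 8 counts (log2 fold change -2.14, SE 0.35, edgeR adjusted p = 0.0032). *Irf1* and *Irf7*, transcription factors of the response, fell by 0.82 and 0.45 on the log2 scale. *Usp18*, which restrains receptor signalling, fell by 0.64, and *Ifngr1*, a chain of the interferon-gamma receptor, rose by 0.33 (edgeR adjusted p = 0.0054). In KO macrophages LPS raised 14 and lowered 1 of the 17, and CCM under LPS changed none by edgeR (6 had an unadjusted p under 0.05, and DESeq2 called 2), with *Ifnb1* at -1.26 (SE 0.37, edgeR adjusted p = 0.27).

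Across the 36 libraries the levels of the 7 genes ran together, with Pearson's r of 0.921 to 0.997 between pairs, a description of libraries that fall into groups with and without LPS. Among 11171 other genes, the 3 whose log2 CPM was most like each of the 7 had r of 0.994 to 0.999. They were *Ifih1*, *Ddx58* and *Sp100* for *Parp9*, *Rnf213*, *Nfkb1* and *Samd9l* for *Dtx3l*, and *Slc7a2*, *Cflar* and *Icam1* for *Parp14*. For *Parp12* they were *Slfn8*, *Irgm1* and *Ifi204*, for *Parp10* *Tap1*, *Nfkb2* and *Rnf114*, for *Parp11* *Tor3a*, *Isg20* and *Samhd1*, and for *Parp8* *Jak2*, *Tdrd7* and *Nfkb1*.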

How the data were processed

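RNA of BMDMs was enriched with poly-T beads and sequenced by the authors, who trimmed the reads with fastp. Per the labels they aligned them to mm10 with HISAT2 2.0.5 and counted them per gene with featureCounts 1.5.0-p3. The deposited values used here are these raw counts, not normalized, in 36 columns, of which 0 were left out. Whether counting used strand is not given in the sources used here.

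Every comparison used a fit of its own groups in edgeR 4.0.16 in R 4.3.3 (filterByExpr, TMM, estimateDisp, glmQLFit, glmQLFTest, no block), two-sided, over all genes that passed the filter, with Benjamini-Hochberg adjustment, and called at an adjusted p of at most 0.05. Interactions were contrasts of 4 groups. Intervals of 95% come from the SE by the normal approximation. CPM used TMM factors, and log2 CPM a prior count of 2. Alternatives were DESeq2 1.42.0, RLE factors, library totals, no filter, the replicate number as a block, all 36 libraries in 1 fit, and leaving out each WT library or KO replicate. Leaving out replicate 6 together with the block, and replicates 5 and 6, were added after seeing the data. The fit was tested on simulated data.

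The 7 genes, the lists and the tests were chosen with earlier results of these data known. All 7 were named in every comparison. From the lists, genes called with CCM under LPS in WT were named, at most 6 per list with the largest change, with their LPS response where given, and *Dtx2*, *Dtx4* and the cell type markers that changed were named after their values were seen. Marker lists were of macrophages, neutrophils, T cells, erythroid cells, fibroblasts and plasmacytoid dendritic cells, and 1 further marker list is not reported here. Each of the 7 genes was compared with genes of an average log2 CPM of at least 1.

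The labels give replicate numbers and do not say that a number marks 1 mouse, so p-values measure the spread between these samples. No pair of libraries in a group agreed within counting noise (the lowest chi-square over its degrees of freedom was 4.34). Deviations of same-numbered libraries correlated at over 0.1 in each pair for LPS in KO (0.296 to 0.832), CCM in unstimulated KO (0.335 to 0.841) and CCM under LPS in WT (0.151 to 0.359), which were treated as paired in the fit with the block.

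Depth was 13469262 to 28288923 read pairs per library, with a median of 19951421.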

Additional observations from a re-analysis of the deposited data

Results flagged for a closer look

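Of 28 sets of 6 KO libraries (7 genes in 4 treatments), 11 held a library whose gap to its nearest neighbour, as a share of the whole range, was over 0.625. For a single set, chance gives this in about 1 in 20. The 28 sets are not independent, since they share libraries and hold genes that deviate together, so their count cannot be weighed against that share. In 10 of the 11 the library was KO replicate 6. It was lowest for *Dtx3l* with vehicle (13.1 CPM) and LPS (119 CPM), for *Parp14* with vehicle (36 CPM) and CCM (36.3 CPM), and for *Parp8* with vehicle (8.52 CPM) and LPS (42.3 CPM). It was also lowest for *Parp9* (13.5 CPM) and *Parp12* (30.2 CPM) with CCM, and highest for *Parp10* with vehicle (46.8 CPM) and LPS+CCM (320 CPM). The other was KO CCM replicate 2, highest for *Parp11* at 10.7 CPM.

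In WT macrophages the interaction of LPS and CCM was called by edgeR for 4 genes, where 2.09% of all genes were called. The difference was -0.67 for *Parp11*, -0.56 for *Parp9*, -0.47 for *Parp10* and -0.42 for *Dtx3l* on the log2 scale. With library totals 2 of the 7 genes were called, and in the fit of all 36 libraries 0. On leaving out a WT library, 2 to 4 were called.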

How the results depend on the processing

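In the comparisons within a genotype, 686 log2 fold changes under alternatives kept their direction and side of the threshold, 24 passed it, 26 no longer did and 13 reversed. The cause was not tested. These 13 reversals came from leaving out 1 library or replicate. For CCM in unstimulated WT the values then ran from -0.0484 to 0.103 for *Parp14*, from -0.0688 to 0.0649 for *Dtx3l*, from -0.137 to 0.0288 for *Parp8* and from -0.0372 to 0.136 for *Parp9*. They ran from -0.0297 to 0.0481 for *Parp10* with CCM in unstimulated KO and from -0.198 to 0.0727 for *Parp11* in the interaction in KO. For CCM in unstimulated KO, 1 gene was called with the replicate block, where 3.11% of all genes were. On leaving out a replicate 0 to 1 were called (1 without replicate 6, where 1.01% of all genes were). With the replicate block and without replicate 6, 2 were called, where 5.24% of all genes were. For CCM under LPS in WT, 0 were called with all 36 libraries in 1 fit, where 0.108% of all genes were. For CCM under LPS in KO, 1 was called with all 36 libraries, where 1.81% of all genes were. On leaving out a replicate 0 to 1 were called (1 without replicate 6, where 1.27% of all genes were). With the replicate block and without replicate 6, 2 were called, where 2.26% of all genes were. Without replicates 5 and 6, 1 was called, where 1.27% of all genes were. For the interaction in WT, 2 were called with library totals, where 2.35% of all genes were. With all 36 libraries 0 were called, where 0% of all genes were. On leaving out a library 2 to 4 were called, where 149 to 295 of all genes tested were.

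In the 4 comparisons between genotypes 0 of 7 were called under every alternative run, 416 values kept their sign and 46 reversed. For KO against WT the replicate block sets samples of the same number together, although the genotypes come from different mice. With it, KO against WT with vehicle was -0.0363 for *Parp10*, 0.0320 for *Parp12*, 0.139 for *Parp14* and 0.0874 for *Dtx3l*. With LPS it was 0.101 for *Parp8*, 0.0829 for *Parp9*, 0.0612 for *Parp12*, 0.132 for *Parp14* and 0.0934 for *Dtx3l*. With library totals *Parp9* with vehicle was -0.0182. On leaving out a library or replicate, the values with vehicle ran from -0.0574 to 0.0343 (*Parp12*), -0.0951 to 0.0787 (*Parp14*), -0.0613 to 0.104 (*Parp9*) and -0.116 to 0.0704 (*Dtx3l*). With LPS they ran from -0.144 to 0.0326 (*Parp8*), -0.229 to 0.00148 (*Parp14*) and -0.204 to 0.0168 (*Dtx3l*). For genotype by LPS *Parp12* was 0.00973 without a filter, and the ranges were -0.162 to 0.0048 (*Parp9*), -0.0983 to 0.0204 (*Parp10*), -0.0722 to 0.0326 (*Parp12*) and -0.178 to 0.0131 (*Parp14*). For genotype by CCM under LPS *Parp10* was -0.00421 with DESeq2, -0.00437 with RLE factors, -0.0562 with library totals and -0.00189 with the replicate block, and *Parp9* was -0.0417 with library totals. The ranges there were -0.00998 to 0.0577 (*Parp9*), -0.0561 to 0.0544 (*Parp12*) and -0.0313 to 0.045 (*Parp10*).

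The numbers did not pair the samples by the bar of 0.1 in each pair for LPS in WT (correlations from 0.0357), CCM in unstimulated WT (from 0.0512) and CCM under LPS in KO (-0.0965 to 0.808). There the replicate block gave 7, 0 and 6 of 7 called (6 where 5.8% of all genes were), and over all genes 255 and 777 for the comparisons with CCM. As a hint from the data, 4 of 6 LPS+CCM and 4 of 6 LPS libraries in KO correlated best with their own number, as did 2 and 3 of 3 for LPS in WT and 3 and 2 of 3 for CCM in unstimulated WT. The replicate block changed no other call of the 7 genes than those given.

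Over all genes, calls for CCM under LPS in WT were 1621, against 3220 with the replicate block and 17 with all 36 libraries. For CCM in unstimulated WT they were 8, against 247 with DESeq2, 377 without a filter and 0 with all 36 libraries. For CCM in unstimulated KO they were 0, against 24 with DESeq2, 429 with the block and 14 with all 36 libraries. For CCM under LPS in KO they were 15, against 180 with DESeq2 and 285 with all 36 libraries. For the interaction in WT they were 308, against 696 with DESeq2, 721 without a filter, 548 with the block and 0 with all 36 libraries, and in KO they were 1 against 81 with the block. For LPS in WT they were 9139, against 5644 with all 36 libraries. With library totals alone the median of all genes for LPS in WT moved from -0.05 to -0.47, the calls from 4441 higher and 4698 lower to 2551 and 8060, and the 7 genes to 1.85 to 4.14. For the interaction in WT the split moved from 69 higher and 239 lower to 230 and 117. With library totals 31 of 56 group means moved by more than 1 SD.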
